A study of Mus musculus with 34 samples.

Results

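The Schlafen family of the mouse was followed through all RNA sequencing libraries of a study that blocked LSD1, an enzyme that removes methyl groups from histones, in a mouse model of SCLC (small cell lung cancer), whose cells carry neuroendocrine features. The LSD1 inhibitor was bomedemstat (BOM). The members were chosen by gene symbol and are Slfn1, Slfn2, Slfn3, Slfn4, Slfn5, Slfn8 and Slfn9, 7 of the 30750 genes listed in the series, and all 7 have a row in each of its 3 count tables. At 96 h, 3 mouse SCLC lines (G8545, RP-48 and RP-116) gave 1 library each with BOM and 1 with the solvent DMSO. At 10 d, a single line, RP-48OVA-LLO190, gave 3 libraries with DMSO, 2 with BOM, 3 with DMSO and interferon gamma (IFNg), and 2 with BOM and IFNg, the IFNg being present for the final 48 h. The same line, RP-48OVA-LLO190, was grown in the flank of mice with an intact immune system for the remaining libraries, which are tumors labelled 16 d. Of these, 5 received vehicle, 4 received BOM, 5 received anti-PD1, which blocks an inhibitory receptor of T cells, and 4 received BOM plus anti-PD1. Every 10 d and tumor library comes from 1 line, a flank tumor is not grown in the lung, and a bulk tumor library mixes cancer cells with the host's cells. The sources used here do not state doses, the strain, age or sex of the mice, or whether libraries of 1 group at 10 d were cultured separately. Their p-values therefore measure only how far these samples spread, and that spread may be technical.

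Schlafen proteins are found in mammals and share an amino-terminal core domain that binds nucleic acids in several members. They are usually sorted by length: Slfn1 and Slfn2 are short, Slfn3 and Slfn4 intermediate, and Slfn5, Slfn8 and Slfn9 long, with a helicase-like part at the carboxyl end. Many members are induced by interferons, the short ones are known from T cells and macrophages, and the human long member SLFN11, which has no single mouse counterpart, is known in SCLC for its link to the response to DNA-damaging drugs.

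The genes form 1 cluster on chromosome 11 of mm10 (82942341 to 83286726, 344 kb, GENCODE M21), with 10 genes named Slfn in it. From its start these include Slfn5 (82951349 to 82964840, plus strand), Slfn9 (82978390 to 82991830, minus), Slfn8 (83002158 to 83020810, minus) and the pseudogene Slfn10-ps (83028130 to 83040042, minus). They are followed by Slfn2 (83065112 to 83070678), Slfn1 (83116849 to 83122670), Slfn4 (83175186 to 83190216) and Slfn3 (83191330 to 83215154), all on the plus strand, and by Slfn14. Of the 50-base stretches in the transcripts of Slfn9, 11.2% also occur in another gene of the family, mostly Slfn10-ps, and the share is 14.6% for Slfn8, 8.15% for Slfn4, 7.39% for Slfn3, 4.27% for Slfn2, 0.606% for Slfn1 and 0% for Slfn5. Counts of Slfn8 and Slfn9, and of Slfn3 and Slfn4, are uncertain to that extent, because reads from such stretches may be dropped or assigned to the other copy. Slfn5os runs antisense to Slfn5, and the library kit does not mark strand, so reads in the shared exons cannot be told apart.

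Promoter sequences are shown for the 3 members that carry the letters of an interferon-stimulated response element (ISRE), the site bound by interferon-activated factors in many interferon-induced genes. All 7 members matched a RefSeq promoter (GRCm38.p6, from 250 bases before to 50 after the start site). The motif searched was GAAANNGAAA on both strands, and capitals mark the matches.
Slfn9 promoter, chr11:82991781-82992080, minus strand: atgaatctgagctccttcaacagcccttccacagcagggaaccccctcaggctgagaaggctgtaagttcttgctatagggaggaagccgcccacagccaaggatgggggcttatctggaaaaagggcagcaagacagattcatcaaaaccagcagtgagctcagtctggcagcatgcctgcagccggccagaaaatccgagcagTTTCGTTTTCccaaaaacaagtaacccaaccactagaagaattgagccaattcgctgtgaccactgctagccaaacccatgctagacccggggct
Slfn8 promoter, chr11:83020761-83021060, minus strand: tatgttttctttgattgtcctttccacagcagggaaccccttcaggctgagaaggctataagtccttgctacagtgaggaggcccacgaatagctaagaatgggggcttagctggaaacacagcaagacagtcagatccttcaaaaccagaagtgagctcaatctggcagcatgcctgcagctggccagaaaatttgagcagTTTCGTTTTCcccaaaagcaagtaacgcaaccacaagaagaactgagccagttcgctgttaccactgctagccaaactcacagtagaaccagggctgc
Slfn5 promoter, chr11:82951852-82952151, plus strand: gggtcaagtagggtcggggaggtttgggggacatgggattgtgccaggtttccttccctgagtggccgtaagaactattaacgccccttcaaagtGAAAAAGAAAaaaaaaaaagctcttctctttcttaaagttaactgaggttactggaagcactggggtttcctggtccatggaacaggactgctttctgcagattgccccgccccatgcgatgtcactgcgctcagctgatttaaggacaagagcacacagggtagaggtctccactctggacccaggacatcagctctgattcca
The match lay at bases -45 to -36 from the start site in Slfn9 and at -155 to -146 in Slfn5. RefSeq gives Slfn8 2 start sites, and the same match lay at -48 to -39 from the one shown and at -136 to -127 from the other. In Slfn9 and Slfn8 the matched letters were the same, TTTCGTTTTC, on the strand opposite to the motif as written. With 25 bases on each side, compared position by position without gaps, 44 of these 60 bases were identical between the neighbors Slfn9 and Slfn8. Just after the match the printed sequences are shifted by a base against each other. Most bases beyond it were thus compared out of register, and 44 understates how alike the sequences are. In Slfn5 the match opens a run of adenines, and the RefSeq start of this gene lies inside the GENCODE gene. Of 32851 promoters in the RefSeq table, 3.44% held this motif. Counted by gene, as the members are, it was in 3.99% of 27025 genes. The interferon gamma activated site TTCNNNGAA, held by 8.30% of promoters and 9.55% of genes, was in 0 of the 7 members. A match describes letters and does not show that a factor binds there.

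Libraries held 8712025 to 9968681 counts at 96 h, 5896627 to 9044398 at 10 d and 5638353 to 82205546 in the tumors, where vehicle tumor 1 was the deepest and the next held 13150056. Levels are given as CPM, a gene's count relative to the library's total, and a count of 0 allows up to 0.301 to 0.344 CPM at 96 h (3 counts of the total, counting error only). The cultures matched their label: Chga, which encodes the neuroendocrine granule protein chromogranin A, held 252 to 450 CPM at 10 d and 252 to 520 at 96 h. The pan-leukocyte gene Ptprc had 0 to 3 counts per library at 10 d and 0 or 1 at 96 h. Whole marker lists were higher at 96 h. In sum, 5 leukocyte genes held 12.2 to 28.2 CPM in DMSO and 12.8 to 24.7 in BOM. Macrophage and monocyte genes (13) held 27.8 to 81.2 CPM in DMSO and 30.2 to 74.1 in BOM. Fibroblast genes (7) held 4.25 to 171 CPM in DMSO and 3.06 to 85.3 in BOM. In the tumors Chga held 219 to 590 CPM and Ptprc 3.87 to 73.7 CPM.

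In cultured SCLC cells the family was nearly reduced to Slfn9, a long member. Slfn9 made up 86.7 to 98.1% of the counts of the 7 members in each of the 16 culture libraries. Per kilobase of exon, its median was 3.81 CPM at 96 h and 1.98 CPM at 10 d, and the next member by median was Slfn8 with 0.148 and 0.0958 CPM per kb. The plot of levels per length shows Slfn9 standing alone in both sets of cultures.

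**Figure D1:**
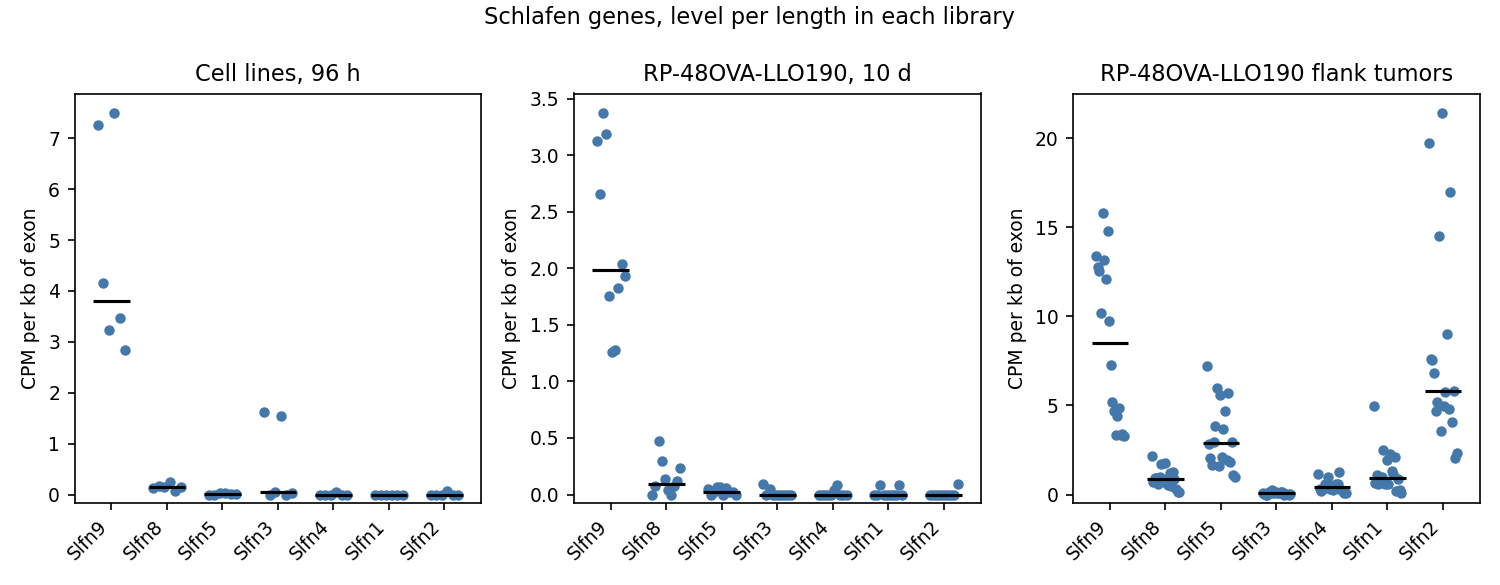
Level of each Schlafen gene in CPM per kb of exon, in 6 libraries at 96 h, 10 libraries at 10 d and 18 tumors (points are libraries, lines are medians over all groups, each panel with its own scale). Slfn9 is the only member with a median above 1 CPM per kb in the cultures, while in the tumors Slfn2 and Slfn5 are above it too.

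The 96 h comparison asked what LSD1 inhibition changes in cultured SCLC cells. Slfn9 held 44.8 CPM in RP-116 with DMSO (95% Poisson interval 40.4 to 49.4, counting error only) and 43.3 CPM with BOM (39.0 to 47.8). In RP-48 it held 20.7 CPM with DMSO (17.9 to 23.9) and 24.8 with BOM (21.8 to 28.1). In G8545 it held 17.0 CPM with DMSO (14.5 to 19.7) and 19.2 with BOM (16.6 to 22.2). RP-116 lay above both other lines under either treatment, and within each line the intervals of DMSO and BOM overlapped. The log2 fold change was 0.11 ± 0.17 (SE), with a 95% interval of -0.27 to 0.49 (edgeR's quasi-likelihood test with the line as a block, Benjamini-Hochberg adjusted p = 0.963). Slfn9 was the 1 member that passed the filter on low counts, and 0% of the 13333 genes tested were called at an adjusted p under 0.05 (812 genes at an unadjusted p under 0.05, and 59 called by DESeq2, Slfn9 not among them).

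Among the other members at 96 h, Slfn3 differed by line. Slfn3, an intermediate member known from the intestinal epithelium, had 46 counts (5.28 CPM) in RP-116 with DMSO and 49 counts (5.55 CPM) with BOM, against 0 to 2 counts in each library of RP-48 and G8545. Slfn8 had 3 to 9 counts in each of the 6 libraries. Over all 6 libraries Slfn5 had 6 counts, Slfn4 had 2, Slfn2 had 1 and Slfn1 had 0. Slfn3 was thus at a countable level in 1 of the 3 lines, with and without BOM.

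At 10 d, cells of RP-48OVA-LLO190 held more Slfn9 with BOM than without it, both in the absence and in the presence of IFNg. Slfn9 held 10.5, 7.53 and 7.63 CPM in the DMSO libraries and 18.7 and 15.8 CPM in the BOM libraries. With IFNg it held 10.9, 12.1 and 11.5 CPM in DMSO and 20.1 and 19.0 CPM in BOM. The 4 BOM libraries all lay above the 6 DMSO libraries, and the groups with and without BOM did not overlap. Counts of Slfn9 were 45 to 172 per library, and the library with the fewest has a 95% Poisson interval of 5.51 to 10.0 CPM.

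**Figure D2:**
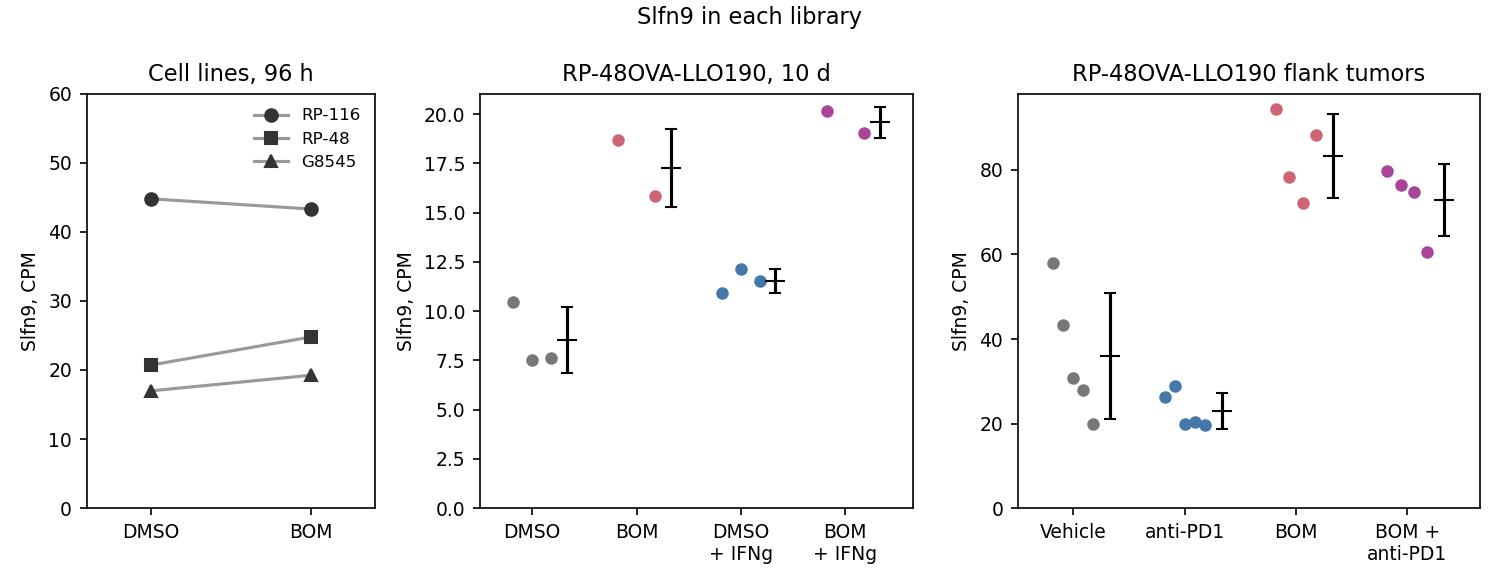
Slfn9 in CPM in each library of the 3 tables, each with its own scale; at 96 h lines join the libraries of 1 cell line, and at 10 d and in the tumors points are libraries in the order of their numbers, with the mean and SD in black. BOM libraries lie above their controls at 10 d (15.8 to 20.1 against 7.53 to 12.1 CPM) and in the tumors (60.6 to 94.3 against 19.6 to 58.0 CPM), but not in each line at 96 h.

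With BOM, Slfn9 rose 1.91-fold over DMSO at 10 d (log2 fold change 0.94 ± 0.19, edgeR adjusted p = 0.00160). It was the 1 member tested and 1 member called, in a comparison that called 20.3% of all 15230 genes. With IFNg in both arms Slfn9 rose 1.62-fold (0.70 ± 0.18, edgeR adjusted p = 0.00900), where 23.1% of genes were called. Both calls held under each of the 18 alternatives run, among them leaving out any 1 library, with adjusted p-values up to 0.0287 without IFNg and 0.0487 with it. Fibroblast marker genes moved with BOM in these cultures: 5 of 6 tested rose without IFNg, and the summed level of the 7 genes was 17.0 to 21.0 CPM in DMSO and 59.1 to 66.7 CPM in BOM. The summed leukocyte genes were at 14.2 to 15.9 CPM in DMSO and at most 12.7 CPM in BOM. Over all 10 libraries Cd3e had 0 to 2, Itgam 0 or 1 and the macrophage gene Csf1r 6 to 17 counts per library. Summed macrophage and monocyte genes were at 30.3 to 36.0 CPM in DMSO and 37.2 to 42.7 CPM in BOM, with 0 of 4 tested called. Summed T cell genes were at 8.65 to 9.82 CPM in DMSO and 5.19 to 5.79 CPM in BOM, with 0 of 2 tested called. Endothelial marker genes were also higher in sum, at 9.16 to 11.8 CPM in DMSO and 33.4 to 49.5 CPM in BOM, with 1 of 2 tested called, and 5 of 12 neuroendocrine genes rose and 2 fell. The part of these markers in the Slfn9 result was not tested.

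IFNg, the ligand of the receptor encoded by Ifngr1 and Ifngr2, gave no call for Slfn9. The log2 fold change was 0.43 ± 0.18 in DMSO (95% interval 0.05 to 0.80, edgeR adjusted p = 0.426), where 2.27% of genes were called, and 0.19 ± 0.19 in BOM (-0.22 to 0.60, edgeR adjusted p = 0.844), where 2.06% were called. The fit behind these values did not pair libraries that share a number. The 3 DMSO libraries with IFNg (10.9 to 12.1 CPM) lay just above the highest without it (10.5 CPM). The test of the difference between the 2 BOM effects gave -0.24 ± 0.26 for Slfn9 (edgeR adjusted p = 0.999), and 0% of genes were called for it (725 at an unadjusted p under 0.05, and 13 called by DESeq2).

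The interferon pathway itself responded in the same libraries. Of 17 interferon signalling genes (receptors, kinases, STAT and IRF factors and feedback inhibitors) 11 rose with IFNg in DMSO and 0 fell, with a median log2 fold change of 0.96, against -0.01 over all genes. In DMSO these included the factor genes Irf1 (4.39 ± 0.16, edgeR adjusted p = 1.06e-12), Stat2 (1.97 ± 0.10) and Irf8. Irf8 went from 0, 0 and 1 counts in the DMSO libraries to 542, 429 and 476 with IFNg. All 16 tested genes of the interferon gamma response and 15 of 20 of the type I response rose as well. In BOM, IFNg raised 10 of 17, 16 of 16 and 19 of 20 genes of these lists. With IFNg present, BOM against DMSO raised 18 of 20 type I response genes (median 1.42) and 9 of 17 signalling genes (5 without BOM plus IFNg library 2), beside 23.1% of all genes called. Of the interferon gamma response genes 4 of 16 rose. The signalling genes included Irf7 (1.75 ± 0.24), a factor of type I interferon induction, and Usp18 (1.61 ± 0.24), a feedback inhibitor, while 1 signalling gene fell. Without IFNg, BOM raised 4 of 17 signalling genes, 5 of 16 interferon gamma response genes (median 1.15) and 4 of 20 type I genes (median 0.51), beside the 20.3% of all genes called. Leaving out 1 library moved these counts to 1 to 5 for each list, with the lowest without BOM library 2 for signalling and without BOM library 1 for the responses. Response counts of 2 were found without DMSO library 2 or 3 for both lists, without BOM library 2 for the interferon gamma list and without DMSO plus IFNg library 3 for the type I list. The 4 signalling genes were the kinase gene Jak1 (0.72 ± 0.11), the receptor gene Ifngr2 (0.82 ± 0.21), Irf1 (0.81) and Usp18 (1.90). Without BOM library 2 the last 3 of them were no longer called (0.79, 0.77 and 1.65, edgeR adjusted p = 0.0603, 0.0521 and 0.121), and Usp18 also not without DMSO library 2 (1.66, edgeR adjusted p = 0.0512).

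Slfn8, the neighbor of Slfn9 with the same promoter match, stayed below the filter on low counts at 10 d. It had 4, 1 and 0 counts in DMSO, 0 and 2 in BOM, 2, 3 and 6 in DMSO with IFNg, and 12 and 11 in BOM with IFNg. The BOM libraries with IFNg were the highest of the 10. Fitted without the filter, the log2 fold change for IFNg in BOM was 3.15 ± 1.15 (edgeR's quasi-likelihood test, adjusted p = 0.189). Slfn5 had 14 counts in all 10 libraries, Slfn3 and Slfn4 had 3 each, Slfn1 had 2 and Slfn2 had 1. None of those 5 genes held more than 4 counts (0.442 CPM) in a library. A change within that low range was not detectable at this depth.

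In the flank tumors 6 of the 7 members passed the filter and Slfn9 was no longer alone. In a bulk tumor, more or fewer cells of a type and more or less RNA per cell cannot be told apart. Per kilobase of exon the median over the 18 tumors was 8.50 CPM for Slfn9, 5.79 for Slfn2, 2.88 for Slfn5, 0.921 for Slfn1, 0.881 for Slfn8, 0.404 for Slfn4 and 0.0784 for Slfn3. The ranges of Slfn9 (3.29 to 15.8 CPM per kb), Slfn2 (2.07 to 21.4) and Slfn5 (1.01 to 7.20) overlapped, as did those of Slfn1 and Slfn8. The group medians of the share of Slfn9 in the members' counts were 42.3% in vehicle, 55.3% in anti-PD1, 69.9% in BOM and 68.2% in BOM plus anti-PD1. Tumor and culture libraries were made from different RNA fractions in part and stand in separate tables, so these levels are set side by side without a test.

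BOM raised Slfn9 in the tumors too, alone and with anti-PD1. In vehicle tumors 1 to 5 it held 58.0, 43.4, 30.9, 28.0 and 19.9 CPM, and in BOM tumors 1 to 4 it held 94.3, 78.4, 72.1 and 88.2 CPM. The lowest BOM tumor lay above the highest vehicle tumor, and vehicle tumors spread nearly 3-fold. Slfn9 rose 2.23-fold (log2 fold change 1.16 ± 0.21, 95% interval 0.71 to 1.61, edgeR adjusted p = 0.00244) and was the 1 member called of 6 tested, in a comparison that called 14.5% of 14332 genes. The 2 highest vehicle tumors were also the 2 deepest libraries. Without them the log2 fold change was 1.66 (edgeR adjusted p = 1.35e-06), and after thinning of vehicle tumor 1 to the median depth of the others it was 1.18 (edgeR adjusted p = 0.00186).

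In anti-PD1 tumors 1 to 5 Slfn9 held 26.2, 29.0, 19.9, 20.3 and 19.6 CPM, and in BOM plus anti-PD1 tumors 1 to 4 it held 79.8, 76.3, 74.8 and 60.6 CPM. Each combination tumor was more than 2-fold above each anti-PD1 tumor. Slfn9 rose 3.12-fold (1.64 ± 0.23, edgeR adjusted p = 9.24e-05), again the 1 member called of 6, where 32.4% of all genes were called. Against vehicle, BOM plus anti-PD1 gave a rise of 1.96-fold (0.97 ± 0.21, edgeR adjusted p = 0.0115), 1 member of 6 with 10.7% of genes called. A share of 1 in 6 members is close to or below the share of all genes in these comparisons, so the count describes Slfn9 and not the family. This last call ended when only the 2 groups compared were fitted (0.99, edgeR adjusted p = 0.0764), and the lowest combination tumor (60.6 CPM) lay just above vehicle tumor 1 (58.0 CPM).

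Anti-PD1 without BOM gave no call for any member. For Slfn9 the log2 fold change against vehicle was -0.67 ± 0.22 (95% interval -1.12 to -0.22, edgeR adjusted p = 0.320). It was -0.18 without vehicle tumors 1 and 2 (edgeR adjusted p = 1). For this comparison 0% of genes were called (1411 at an unadjusted p under 0.05, and 86 called by DESeq2, no member among them). BOM plus anti-PD1 against BOM gave -0.18 ± 0.22 (-0.66 to 0.29, edgeR adjusted p = 0.892), where 0.00698% of genes, 1 gene, were called. The test of whether the BOM effect on Slfn9 differed with anti-PD1 gave 0.49 ± 0.31 (edgeR adjusted p = 0.662), with 0% of genes called (1258 at an unadjusted p under 0.05, and 6 called by DESeq2), and it was -0.01 without vehicle tumors 1 and 2.

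**Figure D3:**
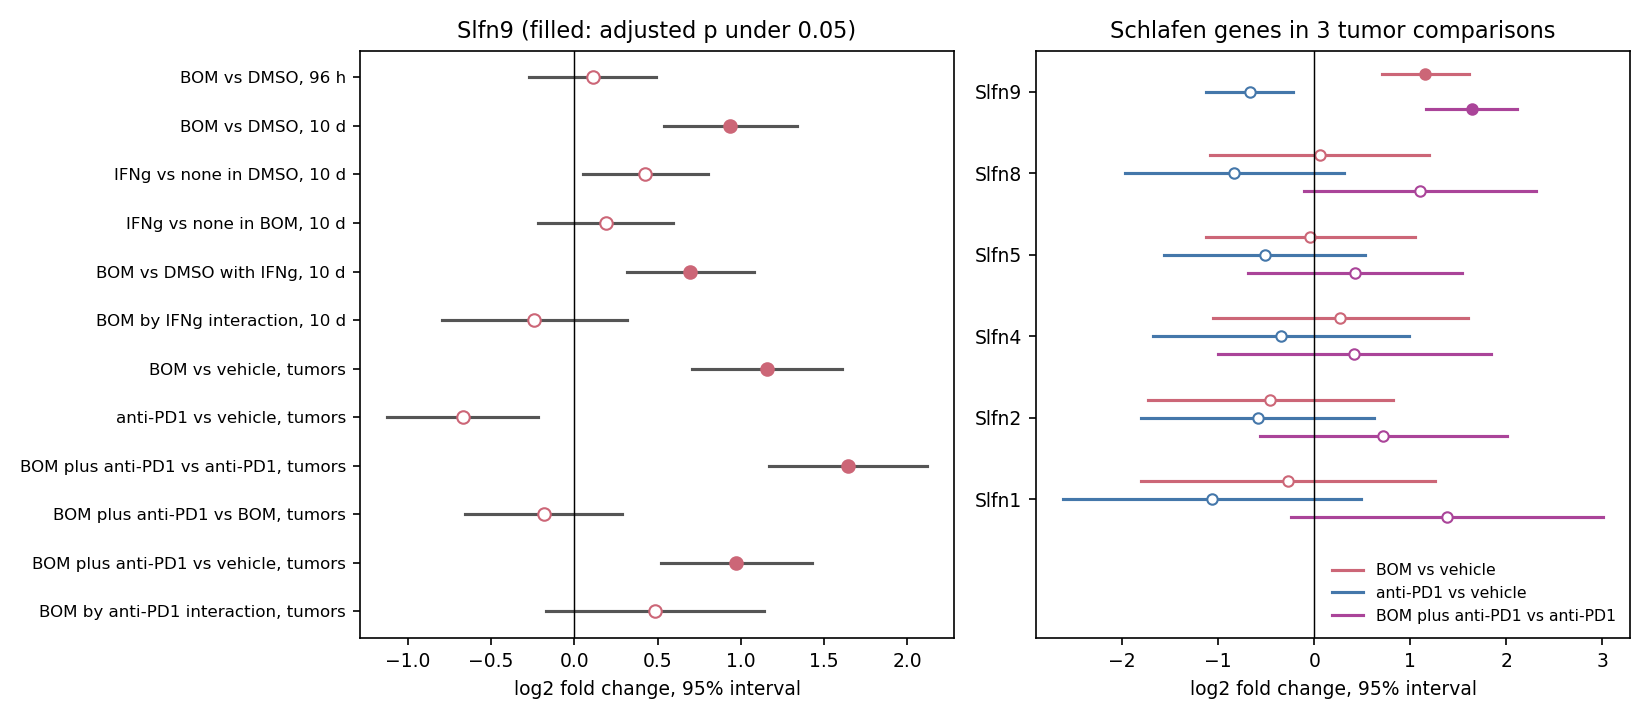
Log2 fold changes with 95% intervals from edgeR, for Slfn9 in all 12 comparisons (left) and for the 6 tested members in 3 tumor comparisons (right), filled where the adjusted p is under 0.05. Slfn9 lies above 0 with BOM at 10 d and in the tumors (0.70 to 1.64), and the intervals of the other members include 0.

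Cell type markers were read beside the Slfn9 result in the tumors. Between BOM and vehicle 0 of 5 leukocyte genes, 0 of 9 T cell genes and 0 of 13 macrophage and monocyte genes were called by edgeR. That comparison called 14.5% of all genes. The summed leukocyte genes were at 83.7 to 353 CPM in vehicle and 90.9 to 229 CPM in BOM, ranges that overlapped. Of 7 fibroblast and 6 endothelial genes 0 were called. Summed fibroblast genes were at 554 to 1249 CPM in vehicle and 455 to 1768 CPM in BOM. Summed endothelial genes were at 65.7 to 96.7 CPM in vehicle and 54.9 to 134 CPM in BOM. Of 12 neuroendocrine genes 2 rose and 8 fell with BOM, with summed levels of 3900 to 4540 CPM in vehicle and 3866 to 4461 CPM in BOM. Between BOM plus anti-PD1 and anti-PD1, 3 of 9 T cell genes rose, near the 32.4% of all genes called, and their summed level was 21.4 to 46.0 against 8.31 to 25.1 CPM. In the same comparison 1 of 12 neuroendocrine genes rose and 5 fell. There, 0 of 5 leukocyte genes were called, and 1 of 7 fibroblast and 1 of 6 endothelial genes rose. Of 13 macrophage and monocyte genes 1 rose, with sums of 617 to 1392 CPM against 262 to 1217 CPM in anti-PD1. The part of these markers in the Slfn9 result was not tested.

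For Slfn1, Slfn2, Slfn4, Slfn5 and Slfn8 the ranges of the 4 tumor groups overlapped. Slfn5, a long member induced by interferon in many cell types, held 12.4 to 35.4 CPM in vehicle (median 23.4), 10.0 to 37.7 in BOM (median 21.3), 6.36 to 36.2 in anti-PD1 (median 11.5) and 10.4 to 45.6 in BOM plus anti-PD1 (median 15.4). Its log2 fold change was -0.04 ± 0.52 for BOM against vehicle (edgeR adjusted p = 0.973) and 0.42 ± 0.53 for BOM plus anti-PD1 against anti-PD1 (edgeR adjusted p = 0.577).

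Slfn8 held 7.30, 2.74, 2.31, 5.06 and 1.92 CPM in vehicle, and 2.43, 3.95, 6.95 and 3.56 in BOM. It held 5.08, 3.65, 1.23, 0.573 and 0.692 CPM in anti-PD1, and 8.83, 2.87, 3.89 and 3.83 in BOM plus anti-PD1. Anti-PD1 tumors 3 to 5 were the lowest of all 18, with 4 to 7 counts each. The log2 fold change between the last 2 groups was 1.10 ± 0.57 (95% interval -0.10 to 2.31, edgeR adjusted p = 0.153).

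Slfn2, a short member needed for T cell quiescence and survival, held 35.7, 8.29, 9.58, 15.0 and 7.97 CPM in vehicle tumors 1 to 5, and 7.82, 8.64, 24.1 and 5.97 in BOM tumors 1 to 4. It held 28.3, 6.77, 9.68, 3.44 and 3.87 CPM in anti-PD1 tumors, and 32.8, 12.7, 12.6 and 11.4 in BOM plus anti-PD1 tumors. In each group 1 tumor stood far above the rest. Slfn1, the other short member, first described as a brake on T cell growth, ranged from 0.138 to 9.26 CPM and Slfn4, an intermediate member known from myeloid cells, from 0.277 to 4.92 CPM. Slfn3 had 45, 4, 2, 3 and 3 counts in vehicle tumors 1 to 5 (0.304 to 0.547 CPM) and 0, 1, 1, 0 and 1 in anti-PD1 tumors 1 to 5 (at most 0.176 CPM). It had 2 to 7 counts in each BOM tumor and 0 to 2 in each BOM plus anti-PD1 tumor. All vehicle tumors thus lay above all anti-PD1 tumors for Slfn3, on a few counts each, and without the filter edgeR did not call it (adjusted p = 0.547). BOM against vehicle gave -0.46 ± 0.61 for Slfn2, -0.27 ± 0.73 for Slfn1 and 0.27 ± 0.63 for Slfn4, and the widest of their 95% intervals, that of Slfn1, ran from -1.80 to 1.26.

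**Figure D4:**
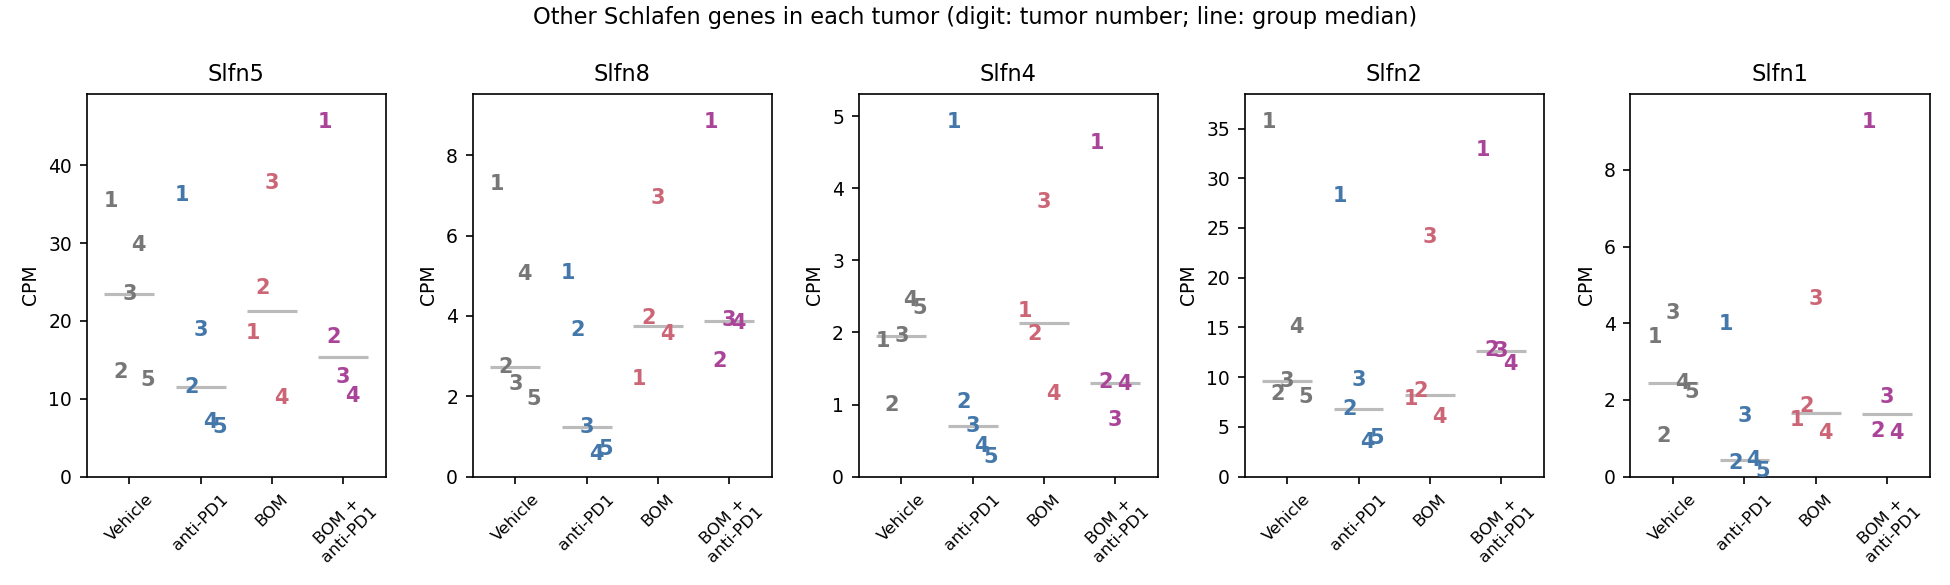
CPM of Slfn5, Slfn8, Slfn4, Slfn2 and Slfn1 in each tumor by group; digits are tumor numbers within a group and grey lines are group medians. Vehicle tumor 1, anti-PD1 tumor 1, BOM tumor 3 and BOM plus anti-PD1 tumor 1 are the highest of their group for Slfn2, Slfn5 and Slfn8, at 24.1 to 35.7 CPM for Slfn2.

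The values of these members between BOM plus anti-PD1 and anti-PD1 moved with single libraries in both directions. With all tumors Slfn9 alone was called. Without anti-PD1 tumor 1, 5 of 6 members were called: besides Slfn9 these were Slfn1 (log2 fold change 2.46, edgeR adjusted p = 0.0278), Slfn8 (1.67, 0.0368), Slfn4 (1.70, 0.0386) and Slfn2 (1.54, 0.0472). With limma voom, which weights down libraries that stand apart, 2 members were called, Slfn9 and Slfn8 (1.77, limma adjusted p = 0.0333). In the full fit the estimates were 1.38 ± 0.77 for Slfn1, 0.72 ± 0.61 for Slfn2 and 0.42 ± 0.68 for Slfn4. Without BOM plus anti-PD1 tumor 1 the log2 fold change was 0.18 for Slfn1, -0.39 for Slfn4 and -0.23 for Slfn5, and none of these was called. Anti-PD1 tumor 1 held the highest level of its group for Slfn1, Slfn2, Slfn4, Slfn5 and Slfn8, and also the highest summed leukocyte genes (201 CPM, lowest 45.3 CPM).

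The same tumors were high in these members, in leukocyte genes and in interferon response genes. The 4 tumors with the highest summed leukocyte genes were vehicle tumor 1 (353 CPM), BOM plus anti-PD1 tumor 1 (269 CPM), BOM tumor 3 (229 CPM) and anti-PD1 tumor 1 (201 CPM). They were also the 4 highest of 18 tumors for Slfn2 (24.1 to 35.7 CPM, at most 15.0 in the others), for Slfn5 (35.4 to 45.6, at most 29.7) and for Slfn8 (5.08 to 8.83, at most 5.06). For Slfn1 and Slfn4 3 of these 4 tumors were among the highest 4, and for Slfn9 it was 1 of them. Each of the 4 was also the highest of its group for the summed type I response (339 to 599 CPM) and interferon gamma response genes (963 to 2934 CPM). The parts of leukocyte content and of interferon response in these levels were not tested. BOM tumor 3 was the highest BOM tumor for Slfn1, Slfn2, Slfn3, Slfn4, Slfn5 and Slfn8 and the lowest for Slfn9 (72.1 CPM).

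**Figure D5:**
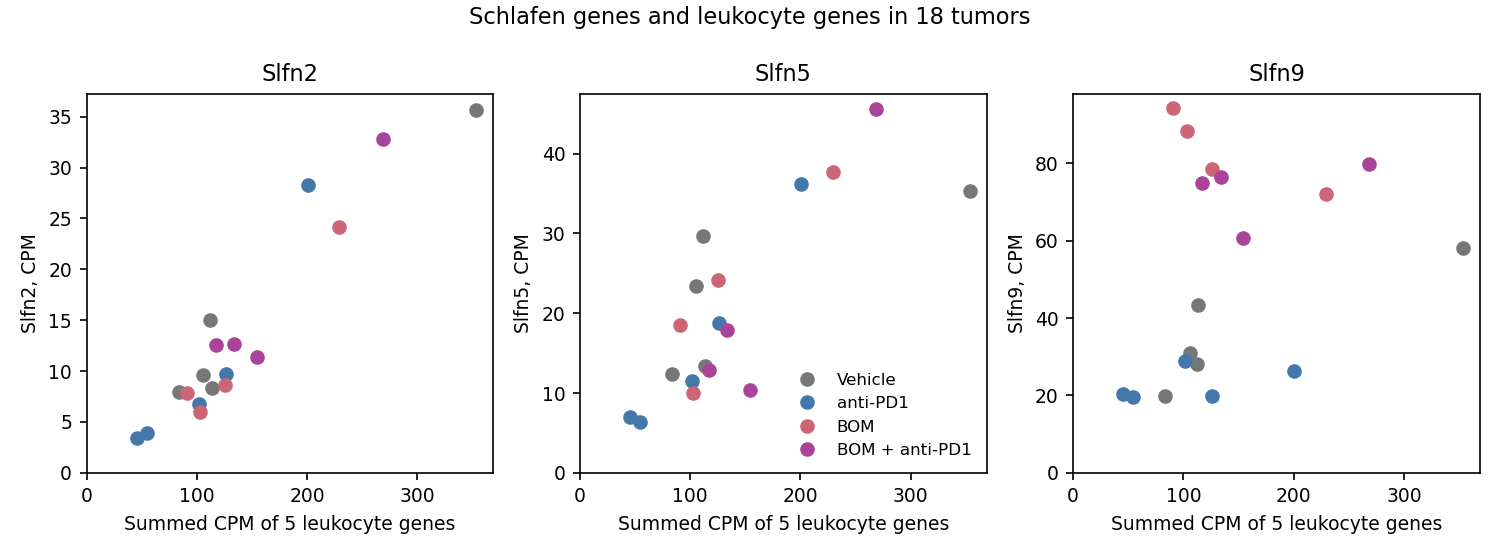
CPM of Slfn2, Slfn5 and Slfn9 in 18 tumors against the summed CPM of 5 leukocyte genes (Ptprc, Cd53, Laptm5, Cd52, Coro1a); colors are treatment groups. The 4 tumors above 200 CPM of leukocyte genes are the highest for Slfn2 and Slfn5, while for Slfn9 the tumors with BOM, at 90.9 to 269 CPM of leukocyte genes, all lie above the tumors without it.

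Interferon genes in the tumors moved between the pairs of groups as follows. BOM against vehicle raised 1 of 17 signalling genes, the receptor gene Ifnar1 (0.29 ± 0.09, edgeR adjusted p = 0.0403), and 0 of 20 type I and 0 of 17 interferon gamma response genes. These counts stand beside 14.5% of all genes called. The Ifnar1 call was lost under 10 of 28 alternatives, among them leaving out vehicle tumor 3, 4 or 5 or BOM tumor 2, 3 or 4 (0.24 to 0.30, edgeR adjusted p = 0.0628 to 0.105). BOM plus anti-PD1 against anti-PD1 raised 7 of 17 signalling genes, 10 of 20 type I genes (median 1.10) and 14 of 17 interferon gamma response genes (median 2.12), where 32.4% of all genes were called and their median was -0.01. These 3 counts moved with single libraries. They were 12, 15 and 17 at most, with 12 signalling genes without anti-PD1 tumor 1. Without BOM plus anti-PD1 tumor 1 they were 4, 6 and 8, without anti-PD1 tumor 2 or 4 the signalling and type I counts were also 4 and 6, and without anti-PD1 tumor 5 the type I count was 6. Among the signalling genes Usp18 (3.04 ± 0.46), Irf1 (1.30 ± 0.22), Ifnar1 (0.41 ± 0.09) and Irf9 (0.94 ± 0.21) had the lowest p. BOM plus anti-PD1 against vehicle raised 4 of 20 type I genes, 1 of 17 interferon gamma response genes and 2 of 17 signalling genes, beside 10.7% of all genes called. Leaving out 1 library gave 1 to 5, 0 to 6 and 0 to 6 of these genes, with the highest of both latter counts without vehicle tumor 1 and the lowest of all 3 without vehicle tumor 3, 4 or 5 or BOM plus anti-PD1 tumor 1. The signalling genes were Irf1 (0.83 ± 0.22) and Usp18 (1.54 ± 0.41). Both calls were lost without vehicle tumor 3, 4 or 5, without BOM plus anti-PD1 tumor 1 (0.73 and 1.33, edgeR adjusted p = 0.0624 and 0.0753) and with only these 2 groups. In the list of replication stress genes, read because of the link of SLFN11 to stalled replication, 0 of 12 rose and 6 fell between BOM plus anti-PD1 and anti-PD1, and 1 fell between BOM and vehicle.

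The genes next to the cluster were read to see whether the change in Slfn9 extended over the locus. The 5 nearest protein-coding genes on each side were taken. At 10 d 7 of these 10 were tested, and Rffl, a ubiquitin ligase gene 71131 bases from the cluster, fell with BOM (-1.25 ± 0.18, edgeR adjusted p = 8.35e-05) and with BOM in the presence of IFNg (-0.99 ± 0.18, edgeR adjusted p = 0.000474). A share of 1 in 7 neighbors is below the 20.3 and 23.1% of all genes called there. In the tumors 6 were tested, and Rffl gave -0.14 ± 0.15 for BOM against vehicle (edgeR adjusted p = 0.592). Ap2b1, an adaptor gene of clathrin-coated vesicles, fell between BOM plus anti-PD1 and anti-PD1 by 0.19 on the log2 scale (SE 0.07, edgeR adjusted p = 0.0472). This call ended under 22 of 28 alternatives, among them leaving out any 1 anti-PD1 tumor (-0.21 to -0.16, edgeR adjusted p = 0.0627 to 0.107) or BOM plus anti-PD1 tumor 1, 2 or 4 (-0.22 to -0.15, 0.0588 to 0.179), and 1 in 6 is below the 32.4% of all genes called. No neighbor rose in any of the 12 comparisons with edgeR.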

How the data were processed

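RNA was sequenced from 6 cultures at 96 h and 18 tumors (polyadenylated RNA) and 10 cultures at 10 d (total RNA), per the labels' protocols. The values are whole-number counts of reads per gene, made and deposited by the authors. The submitters' processing notes name STAR 2.7, featureCounts, Subread 2.0, bcl2fastq, FastQC 0.11.9 and the build mm10, without settings, so how reads shared between copies were counted is not given in the sources used here. Gene symbols are those of the tables, and coordinates come from GENCODE M21, which held 98.2 to 98.3% of the gene identifiers with the same version.

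Each table was analyzed alone, with all columns in the groups their labels give. After filterByExpr 13333, 15230 and 14332 genes were tested at 96 h, at 10 d and in the tumors. TMM factors scaled the libraries, and edgeR 4.0.16 (quasi-likelihood F-test, R 4.3.3) tested each gene, with the cell line as a block at 96 h and all 4 groups of a table in 1 fit otherwise. The residual degrees of freedom were 2, 6 and 14. The Benjamini-Hochberg adjustment covered every tested gene of a table. Genes count as called, and are said to have risen or fallen, at an adjusted p under 0.05. Each ± after a fold change is an SE, and 95% intervals use the t distribution with edgeR's degrees of freedom. Wilson and Poisson intervals cover counting error only.

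The members, gene lists and tests were chosen with earlier results of these data known. All members are named in each comparison, those below the filter by counts. Also named are, per comparison, up to 4 called interferon signalling genes with the lowest p, neighbors called among 5 per side and the 3 genes most like each member. Some results under this rule are not reported here. Alternatives were DESeq2 1.42.0, limma 3.58.1 (voom with sample weights), other scalings and filters, only the groups compared, a replicate block and each library left out. Fits without vehicle tumors 1 and 2 were added after seeing the data. DMSO libraries that share a number without and with IFNg had residual correlations of 0.480, 0.148 and 0.125, each over 0.1, so these were taken as pairs. Their values are from the fit without the block, and the block was run as an alternative. Other libraries that share a number gave 0.0504 to 0.269 at 10 d and -0.406 to 0.580 in the tumors. Some of these were also over 0.1 but were not taken as pairs. Among them were DMSO against BOM plus IFNg (0.167 and 0.135) and BOM without and with IFNg (0.252 for both numbers). For the latter the 2 numbers give 1 value. Each of its groups holds 2 libraries, whose deviations from the group mean mirror each other. No library was a copy of another (lowest chi-square per degree of freedom 2.55). The scripts were tested on simulated data.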

Additional observations from a re-analysis of the deposited data

Results flagged for a closer look

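Within groups of 4 or 5 tumors, 7 values lay apart from the rest of their group by Dixon's test, over 28 combinations of member and group. For independent, normally distributed values chance alone marks about 1 in 20. The test was run on CPM as it stands, for members that were high in the same tumors. The 7 of 28 therefore cannot be read as an excess over that rate. All 7 are high values of Slfn1, Slfn2 or Slfn4, and they come from 4 tumors. In BOM plus anti-PD1 tumor 1 they were Slfn1 at 9.26 CPM, Slfn2 at 32.8 CPM and Slfn4 at 4.63 CPM. In anti-PD1 tumor 1 they were Slfn2 at 28.3 CPM and Slfn4 at 4.92 CPM. Slfn2 also stood apart at 35.7 CPM in vehicle tumor 1 and at 24.1 CPM in BOM tumor 3. These 4 tumors hold the highest summed leukocyte genes of all 18 (201 to 353 CPM, against at most 154 CPM in the others). No value of Slfn9 was marked. The part of leukocyte content in these values was not tested.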

How the results depend on the processing

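The calls of Slfn9 kept their direction and side of the threshold under all alternatives, except that BOM plus anti-PD1 against vehicle ended (0 members called) when only the 2 groups were fitted. The number of members called between BOM plus anti-PD1 and anti-PD1 was 1, but 2 with limma voom, and 1 to 5 when each library was left out. With the replicate block no number of members called changed; Slfn9 had log2 fold changes of 0.92 and 0.68 at 10 d and 1.13 in the tumors for BOM against its control, and 0.43 for the paired IFNg comparison (edgeR adjusted p = 0.343). Slfn1 and Slfn4 reversed with the block between BOM plus anti-PD1 and vehicle (-0.12 and -0.20). With limma voom Slfn8 reversed for BOM against vehicle (-0.10) and Slfn1 for BOM plus anti-PD1 against vehicle (-0.00437). Without vehicle tumors 1 and 2, Slfn5 (0.044) and Slfn2 (0.086) reversed for BOM against vehicle, Slfn4 (-0.19) for BOM plus anti-PD1 against vehicle, and the interaction of Slfn9 (-0.010). None of these values was called, and the cause was not tested. Leaving out 1 library turned the sign of further uncalled values. For BOM against vehicle the ranges were -0.39 to 0.20 for Slfn5, -0.27 to 0.48 for Slfn8, -1.07 to 0.18 for Slfn2 and -0.068 to 0.49 for Slfn4. For anti-PD1 against vehicle Slfn2 ran from -1.40 to 0.050. For BOM plus anti-PD1 against anti-PD1, Slfn5 ran from -0.23 to 0.98 and Slfn4 from -0.39 to 1.70. Against BOM they were -0.70 to 0.30 for Slfn5, -0.25 to 0.55 for Slfn8, -0.61 to 1.18 for Slfn1 and -1.01 to 0.14 for Slfn4. Against vehicle they were -0.74 to 0.15 for Slfn5, -0.18 to 0.69 for Slfn8, -0.36 to 0.77 for Slfn2, -0.88 to 0.61 for Slfn1 and -0.74 to 0.35 for Slfn4. For the interaction they were -0.19 to 1.01 for Slfn5 and -0.67 to 1.42 for Slfn4. Counts over all genes moved by more than 1.5 times in some settings: 0 to 310 at 96 h, 1858 to 3690 and 2095 to 3777 for BOM at 10 d, 243 to 548 and 178 to 506 for IFNg, 1210 to 3363 for BOM against vehicle, 83 to 3284 for BOM plus anti-PD1 against vehicle, and 0 to 67 and 0 to 6 for the interactions. Depth limits the members other than Slfn9 in the cultures, where they hold 0 to 12 counts per library, except Slfn3 in RP-116.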

Other observations

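The genes whose log2 CPM followed each member most closely are given as a description; libraries share their treatment groups, so these values carry no test. Across the 10 libraries at 10 d, Slfn9 was most like Sel1l3 (Pearson r = 0.984), the transcriptional repressor gene Bcl6 (0.976) and Qpct (0.976). Across the 18 tumors it was most like Notch2, a Notch receptor gene (0.987), Tnfrsf11a, which encodes the receptor RANK (0.984), and Smad3, a mediator of TGF-beta signalling (0.982). The other members in the tumors followed other genes. Slfn2 was most like Otulinl (0.968), Apobec1 (0.95) and the macrophage gene Aif1 (0.948), and Slfn8 most like the phagocyte oxidase gene Cybb (0.928), Apobec1 (0.916) and Arhgap30 (0.912). Slfn5 was most like the interferon-induced genes Trim30a (0.971) and Ifi207 (0.961) and the complement gene C1s1 (0.954). Slfn1 was most like Epsti1 (0.910), Ly6a (0.905) and Ifi207 (0.900), and Slfn4 most like Plac8 (0.894), Ly6a (0.885) and Trim30a (0.860).

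Genes named Slfn outside the 7 members held few counts. Slfn14, a family member known from platelets and red blood cells, had 0, 12 and 11 counts in the DMSO libraries at 10 d, 4 and 4 in BOM, 0, 10 and 8 in DMSO with IFNg, and 0 and 10 in BOM with IFNg. The 3 libraries at 0 were each number 1 of their group. In the 6 libraries at 96 h Slfn14 had 3 counts in all and in the 18 tumors 4. Slfnl1, a related gene on chromosome 4 (120532231 to 120536661), had 6 to 25 counts per library at 10 d, 0 or 1 at 96 h and 0 to 5 in the tumors. Slfn10-ps had 20 counts in the 10 libraries at 10 d. It was not among the genes listed at 96 h or in the tumors, so its level there is not known. Slfn5os had 0 counts in the cultures and 7 in the tumors.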
